A study of Drosophila melanogaster with 4 samples.

Results

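The X chromosome carried 1349 Hairy peaks with a midpoint at or below 21 Mb, 15.1% of the 8958 peaks in the deposited list. The list comes from chromatin immunoprecipitation and sequencing (ChIP-seq) of Drosophila melanogaster embryos, with 2 libraries of Hairy ChIP DNA and 2 libraries of input DNA. The ChIP used a rabbit polyclonal serum raised against a stretch of the Hairy protein, and the input libraries hold the same kind of chromatin without that step. All 4 libraries share 1 strain, labelled Y cn bw sp, with the alleles y[1] and oc[R3.2], then Gr22b[1] and Gr22d[1], cn[1] and CG33964[R4.2], bw[1] and sp[1], then LysC[1] and lab[R4.2], MstProx[1] and GstD5[1], and Rh6[1]. The stage label is 0 to 8 h, whereas the collection protocol speaks of a laying of 8 to 16 h, and the sex of the embryos is given as unknown. Whole embryos were used, so the cells in which a peak arose are not known. Members were chosen by position alone. The last peak inside the limit, at 20987182 to 20987427, was 246 bp wide with a score of 8.40, and the first peak beyond it, at 21079978 to 21080298, was 321 bp wide with a score of 18.47. All positions are on Release 5 of the genome, on the X unless another arm is named. Peaks are named by position, because no gene annotation or sequence of that release was used here. The score is the authors' own value for each peak, and its scale is not named. The list has no value per library, so no value below has a replicate error.

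Hairy is a transcriptional repressor of the basic helix-loop-helix family. Its gene is a pair-rule gene, one of those that divide the early embryo into segments. It recruits the co-repressor Groucho and can silence enhancers at a distance. The X chromosome carries several genes that act beside it, among them the pair-rule gene runt, the gap gene giant and the proneural genes of the achaete-scute complex. In flies, males have a single X whose transcription is raised by the dosage compensation complex, and females have a pair.

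Hairy peaks were spread unevenly along the X. The mean was 64.2 peaks per Mb, and single 1 Mb blocks held between 23 and 138 peaks, with a median of 60 and an SD of 25.8 over the 21 blocks. The fullest block ran from 19 to 20 Mb with 138 peaks (exact Poisson 95% interval 115.9 to 163.0), followed by 1 to 2 Mb with 103 (84.1 to 124.9) and 18 to 19 Mb with 96 (77.8 to 117.2). The poorest was 3 to 4 Mb with 23 peaks (14.6 to 34.5), followed by the block next to the telomere, 0 to 1 Mb, with 35 (24.4 to 48.7) and 14 to 15 Mb with 37 (26.1 to 51.0). Neighbouring blocks could differ widely: 2 to 3 Mb held 80 peaks and the next block 23. These intervals, like all others given here, allow for counting error alone. They take each peak as independent of the next, although neighbours are not.

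The remaining blocks lay closer together. From 4 to 7 Mb the blocks held 60, 60 and 63 peaks, and from 7 to 10 Mb they held 45, 71 and 55. The blocks from 10 to 13 Mb held 77, 58 and 43 peaks, and 13 to 14 Mb held 45. From 15 to 18 Mb the counts were 57, 71 and 74, and the last block, 20 to 21 Mb, held 58. By 7 Mb of length, the third nearest the centromere carried 75.9 peaks per Mb, against 60.6 in the third nearest the telomere and 56.3 in the middle. The third nearest the centromere includes the block from 19 to 20 Mb, which held 138 of its 531 peaks and was selected for its density. Peaks covered 3.20% of the 21 Mb, between 1.27% of the block from 3 to 4 Mb and 8.60% of the block from 19 to 20 Mb.

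**Figure D1:**
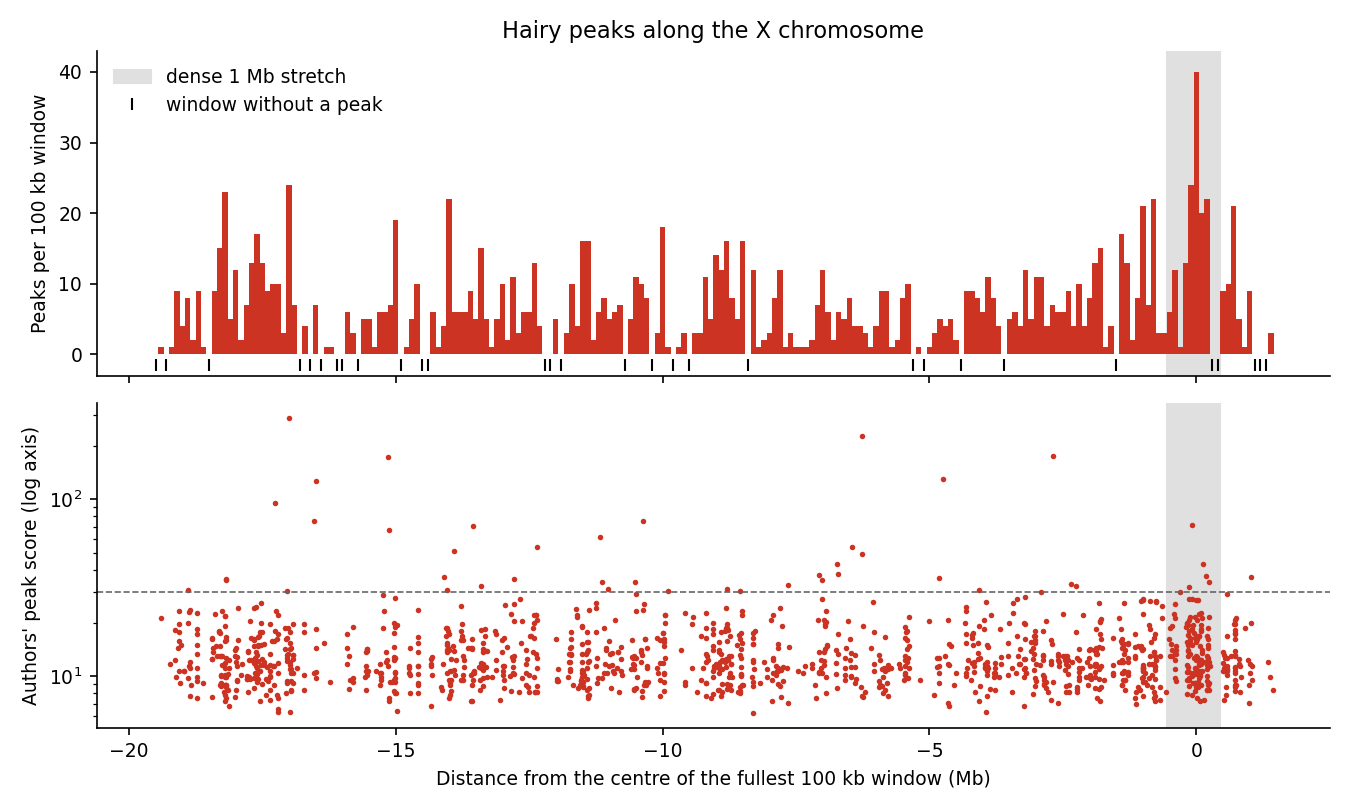
Hairy peaks along the X. The upper panel gives the number of peaks in each 100 kb window, with ticks under windows that hold none, and the lower panel gives the authors' score of each peak on a log axis with a dashed line at 30. The horizontal axis is the distance in Mb from the centre of the fullest window, which holds 40 peaks, and the grey band is the 1 Mb block with 138 peaks.

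Across the blocks, the number of strong peaks followed the number of peaks only weakly, although the fullest block held the most. Of the 1349 X peaks, 47 scored 30 or more, and they lay in all but 1 of the 21 blocks. The exception was 18 to 19 Mb, where none of the 96 peaks reached 30 and the highest score was 27.47. The block from 19 to 20 Mb held 6 such peaks, the most of any block. They were 4.35% of its peaks, against 3.39% over the rest of the X. The block from 12 to 13 Mb held 4 among 43 peaks, and the poorest block, 3 to 4 Mb, held 2 among 23. Across the 21 blocks, the number of peaks and the number scoring 30 or more had a Spearman rho of 0.15, given as a description of blocks that share libraries. Median scores per block were alike, between 11.08 and 13.15.

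At the scale of 100 kb the X held both the fullest window and the most empty windows of the 4 arms compared. The comparison arms were 2L and 3L up to 21 Mb and 3R, which is numbered from its centromere, from 6 to 27 Mb. Each arm thus contributed 21 Mb. The parts were matched in length, not in distance from the telomere or the centromere. Of the 210 X windows, 30 held no peak (14.3%, Clopper-Pearson 95% interval 9.85% to 19.8%), against 13 on 2L (6.19%, 3.34% to 10.4%), 15 on 3L (7.14%, 4.05% to 11.5%) and 17 on 3R (8.10%, 4.79% to 12.6%). The X interval overlaps each of the others, and no test across windows was made. At the other end, 21 X windows held 15 or more peaks, against 14 on 2L, 10 on 3L and 17 on 3R. The fullest 21 windows (10%) carried 31.1% of the X peaks, against 28.3% on 2L, 24.9% on 3L and 26.3% on 3R. The median window held 5 peaks on the X, 5 on 2L, 5 on 3L and 6 on 3R.

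The numbers of peaks themselves were close. The X carried 64.2 peaks per Mb, against 64.1 on 2L, a ratio of 1.00 (exact 95% interval 0.93 to 1.08), and against 61.3 on 3L, a ratio of 1.05 (0.97 to 1.13). Against 70.1 per Mb on 3R the ratio was 0.92 (0.85 to 0.99). Among peaks that scored at or above the median of the whole list, the ratios were lower, at 0.80 (0.72 to 0.90) against 2L, 0.85 (0.76 to 0.96) against 3L and 0.76 (0.68 to 0.85) against 3R. The median score on the X was 12.01 (11.72 to 12.34). It was 12.99 on 2L (12.70 to 13.37), 12.92 on 3L (12.64 to 13.24) and 12.70 on 3R (12.37 to 13.11). Peaks scoring 30 or more numbered 47 on the X, 67 on 2L, 67 on 3L and 81 on 3R. Whether the number of X copies in embryos of unknown sex affects these scores was not tested.

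The fullest 100 kb windows of the X were of unlike kinds. With 40 peaks, the window from 19500001 to 19600000 was covered to 19.62%, and the scores ran from 7.58 to 26.98. Next came 2500001 to 2600000 and 19400001 to 19500000 with 24 peaks each, 1300001 to 1400000 with 23, and 5500001 to 5600000 with 22, a count that 18700001 to 18800000 and 19700001 to 19800000 also reached. The window from 2500001 to 2600000 combined many peaks with the highest score of the X, 288.75, but its median width was only 284.5 bp. In the window from 1300001 to 1400000, 21 of the 23 peaks had a neighbour within 1 kb, and the median score was 10.24. In the fullest window itself, 31 of the 40 peaks had such a neighbour.

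The dense stretch from 19 to 20 Mb was selected for its density, so its values are a description. Its 138 peaks were 10.2% of all X peaks in 1 Mb of 21, at 138 per Mb against 60.6 per Mb over the rest of the X, a ratio of 2.28 (1.90 to 2.72). The peaks did not fill the block evenly. Window by window, from 19000001 on, the counts were 6, 12, 1, 13, 24, 40, 20, 22, 0 and 0. The single peak of the third window, at 19247199 to 19247782, had a score of 30.01. Without the fullest window the ratio was 1.80 (1.45 to 2.21).

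Most peaks of the stretch, 119 of 138, lay in 1 island between peak-free stretches. Between 19362448 and 19797928, over 435.5 kb, these peaks covered 16.7% of the sequence. On its telomere side no peak lay for 114.7 kb, and on its centromere side none lay for 250.7 kb. When the X was divided at every peak-free stretch of 100 kb or more, it fell into 42 such islands with a median of 21 peaks. The empty flanks of an island are thus set by this rule. Among the 25 islands that spanned at least 100 kb, this one had the highest density, 27.3 peaks per 100 kb, followed by 16.9 for the island from 18102052 to 18279061 and a median of 9.73. The islands with the most peaks were longer and looser, with 141 peaks from 16013583 to 17817354 and 140 from 5394534 to 7203604.

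**Figure D2:**
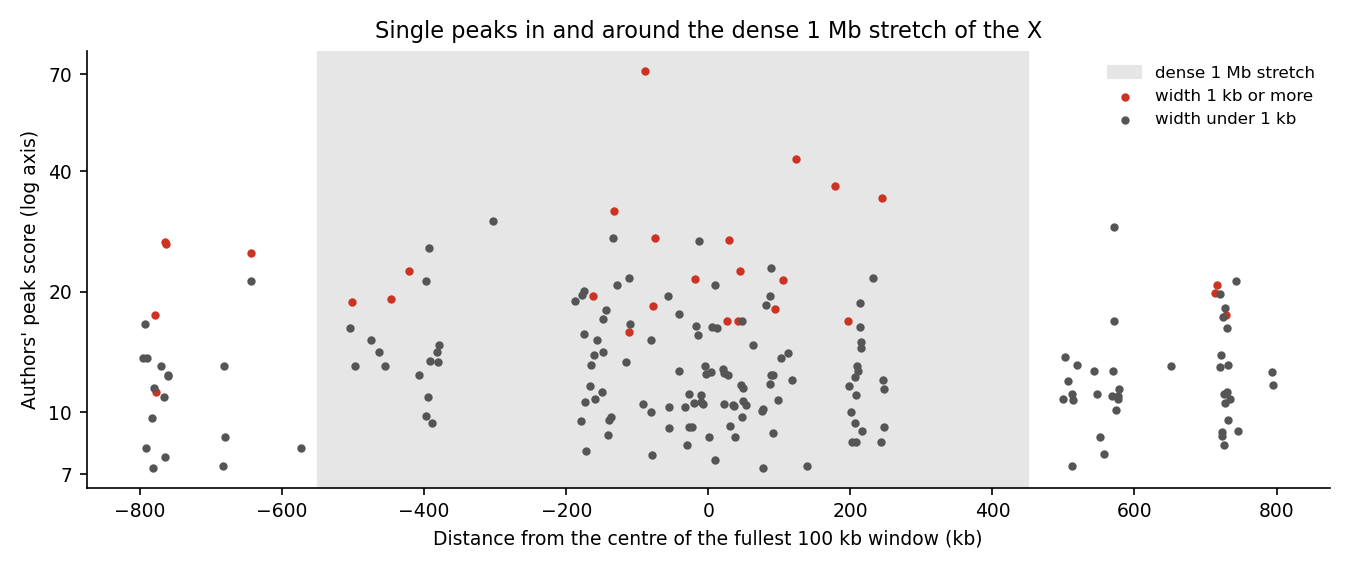
Single peaks in and around the block from 19 to 20 Mb (grey), by distance in kb from the centre of the window with 40 peaks and by the authors' score on a log axis. Each point is 1 peak, red where it is 1 kb wide or more. The 119 peaks of the central island stand between stretches of 114.7 kb and 250.7 kb without a peak.

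Peaks of the dense stretch were also wider as a set, but not in its fullest window. Their median width was 448 bp (order-statistic 95% interval 391 to 556), against 371 bp (354 to 387) over the rest of the X. In the window from 19500001 to 19600000, the 40 peaks had a median width of 346.5 bp, below that of the rest. The other windows of the stretch that held peaks had medians from 403 to 619.5 bp. Peaks of 1 kb or more made up 14.5% of the stretch (20 of 138, Clopper-Pearson interval 9.08% to 21.5%), against 7.35% of the rest (89 of 1211, 5.94% to 8.97%). The 3 widest peaks of the X all lay here, at 19671383 to 19676383 with 5001 bp, at 19727429 to 19730705 with 3277 bp and at 19126618 to 19129483 with 2866 bp. Their scores were 42.97, 36.78 and 22.49. The strongest peak of the stretch, at 19460069 to 19461222, was 1154 bp wide and scored 71.50.

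Scores in the dense stretch went the same way by a small amount. The median score was 13.02 (12.21 to 14.12), against 11.85 (11.65 to 12.18) over the rest of the X. The fullest window, 19500001 to 19600000, had a median score of 12.04, inside the interval of the rest, and its highest score was 26.98. The other windows of the stretch that held peaks had median scores from 12.125 to 30.01, the latter from a window with a single peak. Among windows with more than 1 peak the highest median was 15.48. Peaks above the upper quartile of the whole list were 23.2% of the stretch and 15.3% of the rest. Wide peaks and high scores go together in this list, so widths were also set side by side within score classes cut at the quartiles of the whole list, 10.36, 13.18 and 18.47. In the lowest class the median width was 264 bp in the stretch and 271 bp in the rest, and in the highest class 990.5 bp (748 to 1273) in the stretch and 803 bp (730 to 893) in the rest. All 4 pairs of intervals overlapped.

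Peak-free stretches of 100 kb or more took up a larger share of the X than of the other arms. A desert is taken here as 100 kb or more between the edges of neighbouring peaks, and it marks a region where nothing passed the authors' threshold. The X held 41 deserts that summed to 6.93 Mb, or 33.0% of the 21 Mb. On 2L there were 32 (23.5%), on 3L 26 (19.2%) and on 3R 31 (23.8%). The X count was thus 1.28 times that of 2L (exact 95% interval 0.79 to 2.10), 1.58 times that of 3L (0.94 to 2.69) and 1.32 times that of 3R (0.81 to 2.18), and each interval includes equal numbers. At 200 kb or more, there were 9 on the X, 3 on 2L, 4 on 3L and 6 on 3R. At 50 kb or more the numbers were close, with 105 on the X, 105 on 2L, 107 on 3L and 98 on 3R. The longest desert of the 4 arms was not on the X but on 2L, with 429.5 kb.

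**Figure D3:**
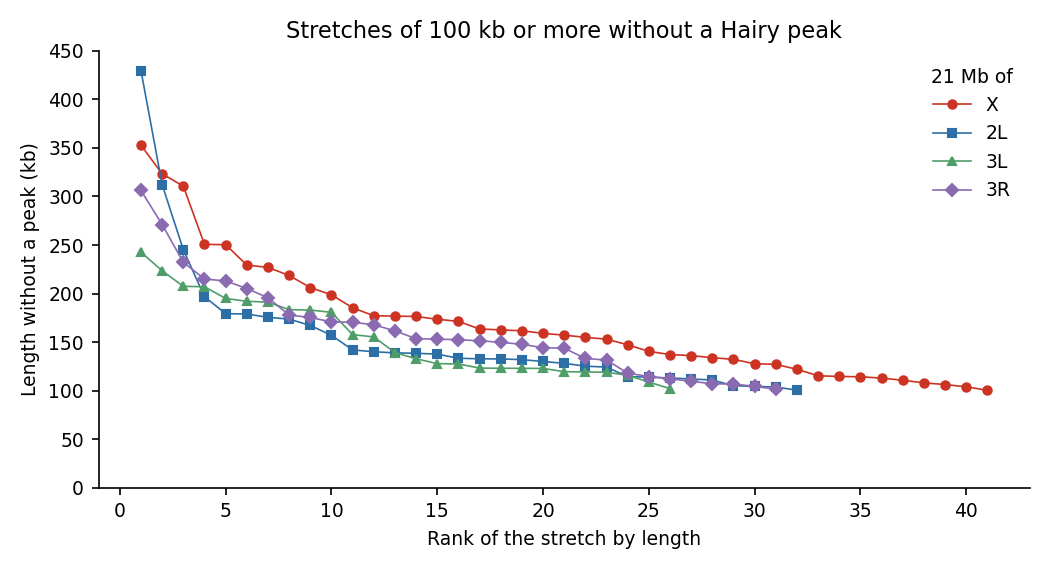
Stretches of 100 kb or more without a Hairy peak, ranked by length in kb, for 21 Mb each of the X, 2L, 3L and 3R. Each point is 1 stretch. The X has 41 of them, and at every rank but the first its point lies above those of the other arms.

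The longest desert of the X ran from 7203605 to 7556432, over 352.8 kb. After it only 4 more exceeded 250 kb, namely 3314064 to 3637311 with 323.2 kb, 20591149 to 20901751 with 310.6 kb, 19797929 to 20048583 with 250.7 kb and 9649265 to 9899606 with 250.3 kb. The rest of the 10 longest were 3748857 to 3978248 (229.4 kb), 4975011 to 5201960 (227.0 kb), 4579836 to 4798480 (218.6 kb), 14162932 to 14369149 (206.2 kb) and 7582972 to 7781736 (198.8 kb). Deserts were most numerous in the poor block of 3 to 4 Mb and in the block of 12 to 13 Mb, where 4 each had their centre. The blocks of 0 to 1, 2 to 3 and 4 to 5 Mb followed with 3 each. None had its centre between 6 and 7 Mb or between 16 and 17 Mb. The first peak of the X began at 160216, so the outermost 160.2 kb of the assembled chromosome also had none.

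Some lone peaks stood between a pair of deserts. The X had 4 of them, 2L had 1, 3L had none and 3R had 3. The X peak at 3313652 to 3314063, with a score of 9.27, lay 108.0 kb from the peak before it and 323.2 kb from the peak after it. The peak at 14369150 to 14369560, with a score of 9.56, was the only one in a 383 kb stretch made of gaps of 206.2 and 177.1 kb. The others lay at 945618 to 945894 and at 3205341 to 3205605. The 78 peaks beside a desert had a median width of 401 bp (329 to 457) and a median score of 11.40 (10.77 to 12.46), against 375 bp (360 to 392) and 12.04 (11.72 to 12.37) for the other 1271 X peaks. Both pairs of intervals overlap. A neighbour within 1 kb was found for 17 of the 78 (21.8%) and for 686 of the 1271 (54.0%); a peak beside a desert has at most 1 side on which such a neighbour can lie, and the 4 between a pair of deserts have none.

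Neighbouring peaks on the X were closer than on the other arms. The median gap between the edges of neighbours was 3155 bp on the X (2732 to 3669), against 4521.5 bp on 2L (4141 to 5227), 5740 bp on 3L (5039 to 6659) and 4301.5 bp on 3R (3668 to 4855), whose interval meets that of the X. Gaps of 1 kb or less were 32.8% of all gaps on the X (442 of 1348, Clopper-Pearson interval 30.3% to 35.4%). On 2L they were 24.2% (21.95% to 26.6%), on 3L 22.6% (20.3% to 24.9%) and on 3R 26.6% (24.3% to 28.9%), all with intervals below that of the X. Leaving out the block from 19 to 20 Mb gave 32.2% on the X. The excess lay mostly in gaps of 101 to 500 bp, which were 17.4% of X gaps, against 11.4% on 2L, 10.9% on 3L and 12.8% on 3R. Gaps of 501 to 1000 bp were 9.12% on the X, against 8.69%, 7.78% and 9.44% on 2L, 3L and 3R. The smallest gap was 50 bp on the X and on each of the other arms.

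Close neighbours formed longer runs on the X. Runs of 5 or more peaks with gaps of 1 kb or less are called chains here. The X held 17 chains with 109 peaks (8.08% of its peaks), against 5 with 31 peaks on 2L, 3 with 16 peaks on 3L and 8 with 41 peaks on 3R. The number of chains on the X was 3.40 times that of 2L (exact 95% interval 1.20 to 11.8), 5.67 times that of 3L (1.64 to 30.2) and 2.13 times that of 3R (0.87 to 5.69), the last including equal numbers. Only 4 of the 17 lay between 19 and 20 Mb, and the others were spread so that chains occurred in 9 of the 21 blocks. With gaps up to 500 bp the X had 9 chains, against 1, none and 2 on 2L, 3L and 3R, and with gaps up to 2 kb it had 34, against 13, 19 and 24. Among peaks at or above the median score of the list, no arm had a chain, so every chain on these arms contains weaker peaks.

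**Figure D4:**
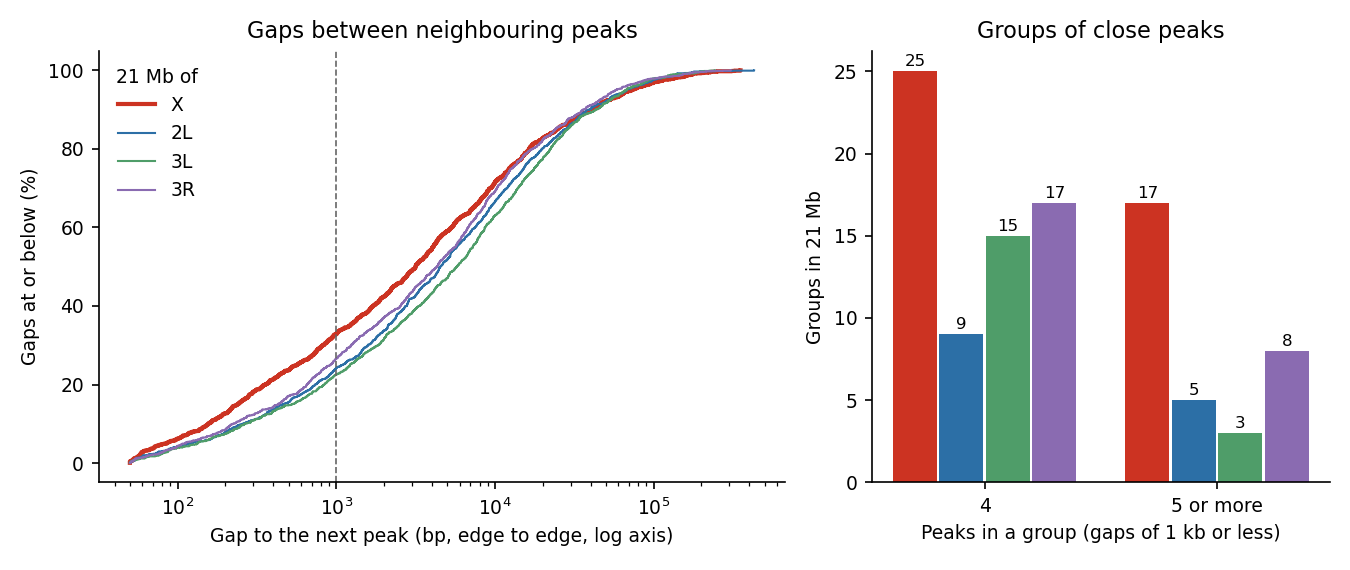
Spacing of Hairy peaks on 21 Mb each of the X, 2L, 3L and 3R. The left panel gives the cumulative percentage of edge-to-edge gaps between neighbours against gap length in bp on a log axis, with a dashed line at 1 kb, and the right panel counts groups of 4 and of 5 or more peaks joined by gaps of 1 kb or less. The X curve is the highest of the 4 at 1 kb, and the X has 25 groups of 4 and 17 of 5 or more.

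When all peaks joined by gaps of 1 kb or less were counted as 1 group, the X had fewer groups than any of the other arms. It had 907 groups, against 1021 on 2L, a ratio of 0.89 (0.81 to 0.97), 997 on 3L, a ratio of 0.91 (0.83 to 0.996), and 1082 on 3R, a ratio of 0.84 (0.77 to 0.92). The X peaks that stood alone, with no other within 1 kb, numbered 646 (47.9%), against 786 (58.4%) on 2L, 783 (60.8%) on 3L and 805 (54.7%) on 3R. The X, 2L and 3L thus had similar numbers of peaks, and those of the X lay in fewer separate groups. The number of groups is the number of peaks less the number of gaps of 1 kb or less. It therefore restates the count of close gaps given above and is no further result.

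The longest chain of the X lay at 20269601 to 20282328, with 15 peaks over 12.7 kb. It stood in the island that follows the long desert after the dense stretch. Its peaks were 201 to 1047 bp wide, with a median of 460 bp, and covered 65.1% of the chain. The gaps between them ran from 55 to 762 bp, and the scores from 8.28 to 19.77. The next were a neighbouring pair, 9 peaks at 1351568 to 1357615 and 8 peaks at 1367070 to 1374359, with 9.45 kb between them. Chains of 7 peaks lay at 1891953 to 1898600 and at 4514255 to 4519835. Over all 17, spans ran from 3.25 to 12.7 kb, peaks covered between 48.9% and 83.5% of the span, and the highest score was 35.11.

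Chain peaks were wider than lone peaks, whereas their scores overlapped. The 109 chain peaks had a median width of 453 bp (411 to 517), against 363.5 bp (338 to 386) for the 646 that stood alone, and median scores of 12.37 (11.40 to 13.71) against 11.72 (11.40 to 12.04). The 594 peaks in groups of 2 to 4 had a median width of 377.5 bp. Chains are defined by gaps between edges, and at a given distance between midpoints wider peaks leave shorter gaps. The difference in width is therefore in part set by the definition. Peaks of 1 kb or more were 8.26% of chain peaks, 8.92% of those in groups of 2 to 4 and 7.28% of lone peaks. Of the 47 X peaks that scored 30 or more, 35 stood alone and 2 were in a chain. A neighbour within 1 kb was present for 25.5% of these 47 and for 53.1% of the other 1302. They were also wider, with a median of 900 bp, against 367.5 bp for the others. Whether some chains are single regions that the peak caller divided was not tested.

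The strongest X peaks were scattered over the chromosome. The 10 with the highest scores lay in 8 of the 21 blocks, and 9 of them had no neighbour within 1 kb. Over all X peaks, 646 (47.9%) had none. The highest, at 2553284 to 2555024, scored 288.75 over 1741 bp and lay in the window of 24 peaks from 2500001 to 2600000. The second, at 13276988 to 13278930 with a score of 227.74 and 1943 bp, lay in a window with only 4 peaks. The next were at 16861378 to 16861967 (score 174.95, 590 bp) and 4400738 to 4401608 (172.46, 871 bp), in windows of 7 peaks each. The fifth, at 14804153 to 14805052 with a score of 129.50 and 900 bp, was the most isolated, with its nearest neighbour 39.4 kb away.

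Of the other 5, 2 lay in the poor block of 3 to 4 Mb. They were the peak at 3056242 to 3057044 with a score of 127.23 and the peak at 3025091 to 3026630 with a score of 75.31, separated by 29.6 kb without a peak. The peak at 2281723 to 2282541 scored 95.32 and that at 9179846 to 9180915 scored 75.31. The last was the strongest peak of the dense stretch, with 71.50. The 10 peaks were between 590 and 1943 bp wide, with a median of 985 bp.

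Widths on the X had nearly the same distribution as on the other arms. The median was 376 bp on the X (363 to 393), 387 bp on 2L (371 to 402), 378 bp on 3L (362 to 393) and 360 bp on 3R (347 to 378). The quartiles on the X were 265 and 589 bp, and the range ran from 201 to 5001 bp, with 36 peaks at the smallest width. The smallest width was also 201 bp on 2L, 3L and 3R. Whether the peak caller set this limit was not tested. Peaks of 1 kb or more numbered 109 on the X (8.08%, 6.68% to 9.66%), against 97 on 2L (7.20%), 86 on 3L (6.68%) and 122 on 3R (8.28%). Median widths per 1 Mb block of the X lay between 320 bp (14 to 15 Mb) and 451 bp (3 to 4 Mb), so the poorest block and the fullest block, with 448 bp, had the widest medians. After the 3 widest peaks, all from 19 to 20 Mb, came 7934820 to 7937431 with 2612 bp and a score of 23.90, and 3061968 to 3064248 with 2281 bp and a score of 18.47.

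Among the higher score classes, median widths on the X were above those of the other arms, with intervals that in part overlapped, whereas in the lower classes they were close. Fewer X peaks fell into the highest score class, 217 or 16.1%, against 21.01% on 2L, 21.5% on 3L and 20.8% on 3R. In that class the median width was 819 bp on the X (764 to 900), against 688 bp on 2L (646 to 750), 679 bp on 3L (634 to 731) and 779 bp on 3R (712 to 850). The X interval lies above those of 2L and 3L and overlaps that of 3R. In the class below, the median was 519 bp on the X (467 to 550), against 450 bp on 2L (420 to 498), 444.5 bp on 3L (415 to 477) and 408 bp on 3R (383 to 446), with an interval above that of 3R alone. In the next class down, which held 426 X peaks, the median was 333.5 bp on the X (316 to 356), against 330 bp on 2L (316 to 343), 339.5 bp on 3L (317 to 364) and 314 bp on 3R (299 to 328), all overlapping the X. In the lowest class it was 270.5 bp on the X (264 to 287), against 255 bp on 2L (246 to 264), 260.5 bp on 3L (256 to 271) and 266 bp on 3R (255 to 273), and each interval meets or overlaps that of the X. Joining peaks within 500 bp raised the X median most, to 457 bp, against 429.5 bp on 2L, 430 bp on 3L and 416 bp on 3R. It also put 20.8% of the joined X regions at 1 kb or more, against 16.4%, 14.4% and 16.5% on 2L, 3L and 3R.

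**Figure D5:**
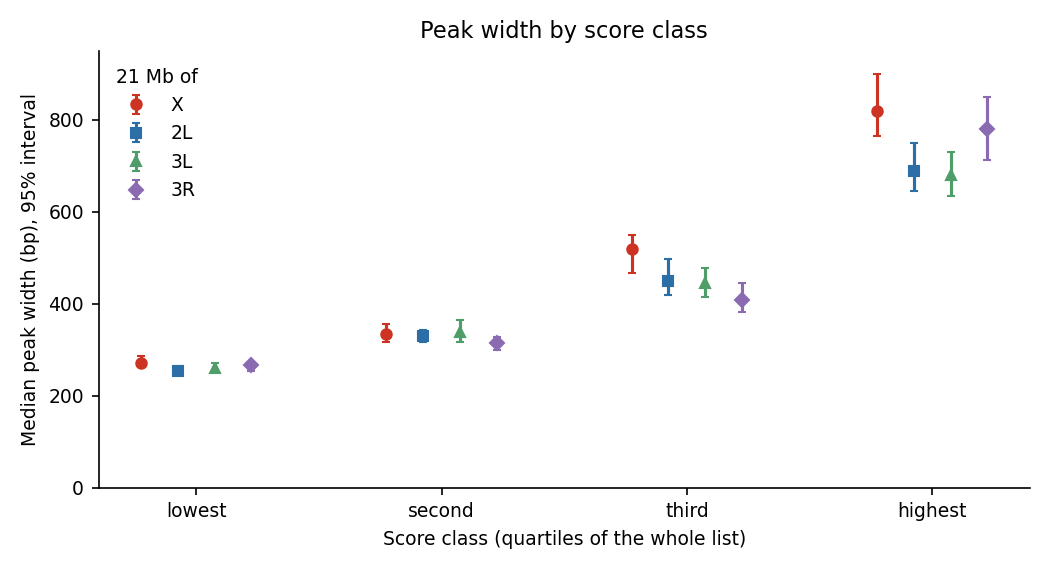
Median width in bp of Hairy peaks in 4 score classes, cut at the quartiles of the whole list, on 21 Mb each of the X, 2L, 3L and 3R. Points are medians and bars are order-statistic 95% intervals. In the highest class the X median is 819 bp, against 688, 679 and 779 bp on 2L, 3L and 3R.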

How the data were processed

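The data analysed were 1 deposited list of Hairy peaks for the whole series, giving each peak a start, end and score. Per the file headers, its coordinates are on FlyBase release 5 and its source is MACS. Per the submitters' processing notes, the tools were MACS2, BWA and CASAVA (versions 1.7.0.2 and 1.7.0.3), with the build BDGP5. Not given in the sources used here are the pooling of replicates, the control, the threshold and the handling of repeats, which decide which peaks are listed. The score was used as the authors deposited it, only within the list. Library depth cannot be read from the list, and it is unknown.

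Peaks were placed by midpoint. Windows of 100 kb and blocks of 1 Mb were counted from base 1, and gaps were measured between edges. No listed X peaks overlapped. Ratios of counts have exact intervals conditional on their sum, shares have Clopper-Pearson intervals, counts have exact Poisson intervals and medians have order-statistic intervals, all at 95%. No p-value was computed, because peaks of 1 list are not replicates. Peaks, windows, chains and deserts to be named were set by rank (the 10 strongest, the 5 widest, the 5 fullest windows, the 10 longest deserts, the 5 longest chains, and all blocks), and islands, lone peaks between deserts and the tied windows were named after their values were seen. The members and lists were chosen with earlier results of these data known. The planned comparison with gene starts and motifs was not run, since the gene table at hand is for Release 6 and coordinates were not converted. The counting steps were tested on simulated data. Software was Python 3.11.15 with scipy 1.17.1, numpy 2.4.6, matplotlib 3.10.9 and pandas 2.3.3.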

Additional observations from a re-analysis of the deposited data

How the results depend on the processing

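No paired analysis was possible because the libraries have no values of their own in the list, which also means that none could be left out. Of the alternatives to the main values, 17 moved them by more than 1.5 times (counts) or out of their 95% interval (others), and 14 did not. The 17 are given next. Keeping only peaks at or above the median score of the list gave 25.1 peaks per Mb on the X, 68 deserts, a ratio of 2.81 for the stretch from 19 to 20 Mb, a median width of 605 bp and X rates of 0.80, 0.85 and 0.76 times those of 2L, 3L and 3R. Joining peaks within 500 bp gave rates of 0.91, 0.94 and 0.84 times those of 2L, 3L and 3R and a median width of 457 bp. The stretch had a ratio of 1.80 without its fullest window. Deserts numbered 105 at 50 kb or longer and 9 at 200 kb or longer, as the definition sets. At 50 kb or longer the other arms held 105 on 2L, 107 on 3L and 98 on 3R, so the X had no surplus at that length. Among peaks at or above the median score, deserts of 100 kb or more numbered 52 on 2L, 53 on 3L and 54 on 3R, against 68 on the X. At that score the X also kept fewer peaks, 527 against 655, 619 and 695. The share of close gaps was 23.7% at 500 bp, 42.4% at 2 kb and 21.8% at 1 kb between midpoints, and on the X it was the highest of the 4 arms each time. Further alternatives concerned the fullest window and the share of empty windows, where 7 moved the value and 3 did not. Peaks at or above the median score left 15 peaks in the fullest window and 29.0% of windows empty. Joining peaks within 500 bp left 26 peaks in it. The others that moved were windows of 50 or 200 kb. The fullest window lay within the same 200 kb, 19400001 to 19600000, except that windows shifted by 50 kb placed it at 19550001 to 19650000 with 37 peaks. The count of chains among higher-scoring peaks was added after the data were seen. The unknown depth and threshold limit what an empty stretch can show.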

Other observations

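Beyond 21 Mb the X list held 30 more peaks, and the scaffold of X heterochromatin held 2. Of these 30, 19 lay together at 21189310 to 21260945, over 71.6 kb, with scores from 7.21 to 26.22. The strongest of the 30, at 21436571 to 21437065, scored 42.44 over 495 bp.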
